A study of Mus musculus with 18 samples.

Results

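Interferon-stimulated genes were followed in organoid cultures of mouse small intestine. The set held 42 genes chosen by name from the textbook interferon response, and all 42 were found among the 55414 genes of the table. The choice was made with earlier results of these data known, so the shares of members called below describe this set only. By role they comprised 5 secreted or conjugated effectors with their peptidase, 4 RNA-binding IFIT genes, 5 genes of the oligoadenylate synthetase family, 5 transcription factors, 4 sensors of foreign RNA and DNA with an antiviral kinase, 11 restriction factors and other antiviral effectors, 3 genes of ADP-ribosylation and 5 interferon-inducible GTPases.

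RNA of 18 cultures from C57BL/6J wild-type mice was sequenced, 3 in each of 6 groups, and the series calls the 3 replicates of COL_5FU, COL_Control, MG_5FU and MG_Control biological. The series text does not say so of VIL and COL_cWRNE. The p-values below measure only the spread between these samples, which for those groups may be technical in part. Replicate 2 held 5381 Y-linked counts in VIL and 5577 in COL_cWRNE, with 0 counts of Xist. Replicates 1 and 3 of these groups held at most 1 Y-linked count and at least 4880 counts of Xist. VIL was grown from villi scraped from the intestine within 3 cm of the pylorus, in collagen type I with 25% cWRNE medium. COL_cWRNE was grown from crypts in collagen type I with the same medium. COL_5FU was grown from crypts in collagen type I with ENRW medium and received 40 µM 5-fluorouracil (5-FU), a pyrimidine analog used as a chemotherapeutic, from day 4. COL_Control was the same culture without 5-FU. MG_5FU was grown from crypts in Matrigel, an extract rich in basement membrane proteins, under ENR medium, named for EGF, Noggin and R-spondin, and was given 40 µM 5-FU from day 4, and MG_Control was the same culture without the drug. Cultures were harvested on day 6. Matrix and medium therefore differ together between COL_Control and MG_Control, and what the ENRW and cWRNE media contain in full is not given in the sources used here, nor are the age, sex and number of the mice. No group was treated with an interferon or a virus according to the labels.

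Interferons are secreted proteins that bind receptors on the cell surface. Type I interferons use Ifnar1 with Ifnar2, type III interferons use Ifnlr1 with Il10rb, and interferon gamma uses Ifngr1 with Ifngr2. Type III interferon is known as a main antiviral signal of gut epithelium. Receptor-bound JAK kinases phosphorylate STAT proteins. Stat2 and Irf9 are part of the complex ISGF3, which binds the interferon-stimulated response element (ISRE) in promoters, while interferon gamma acts through the gamma-activated site (GAS). The products block viral entry, translation, replication or release, and some members, among them Irf7, Stat2 and Irf9, feed back on the pathway itself.

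The promoters of several members carry the ISRE core in readable form, and these stretches are shown so that the element can be read in the genes described below. In RefSeq's promoter table (GRCm38.p6) 33 of the 42 members had an entry. The core, GAAA followed by any 2 bases and GAAA again, searched on both strands in the 250 bases before the start site, was present in 15 of these 33 members (45.5%) and in 936 of 27025 genes of the table (3.46%). The GAS core TTCNNNGAA, which reads the same on both strands, was present in 7 of 33 members (21.2%) and in 8.13% of all genes. In the stretches below ISRE matches on either strand are in capitals, as is the GAS match of Irf1, and neighbouring cores can overlap. A GAS core in the Bst2 stretch overlaps its first ISRE core and is not marked. The stretches are written 5′ to 3′ on the gene's own strand. They lie at chr4:156200859-156200908 (minus strand) for Isg15, chr19:34640775-34640824 (plus) for Ifit1, chr19:34583363-34583427 (plus) for Ifit3, chr19:34607759-34607823 (plus) for Ifit3b, chr5:120907526-120907585 (minus) for Oas1a, chr8:71537573-71537622 (minus) for Bst2, chr11:48871421-48871480 (minus) for Irgm1, chr3:142559984-142560043 (plus) for Gbp3 and chr11:53769899-53769948 (plus) for Irf1, all upstream of the annotated start site.
Isg15: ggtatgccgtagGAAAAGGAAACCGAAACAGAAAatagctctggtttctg
Ifit1: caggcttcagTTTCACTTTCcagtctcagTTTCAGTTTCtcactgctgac
Ifit3: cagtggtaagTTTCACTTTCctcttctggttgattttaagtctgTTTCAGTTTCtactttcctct
Ifit3b: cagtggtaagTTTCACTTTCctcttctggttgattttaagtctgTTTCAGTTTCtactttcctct
Oas1a: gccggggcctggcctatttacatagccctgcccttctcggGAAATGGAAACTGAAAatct
Bst2: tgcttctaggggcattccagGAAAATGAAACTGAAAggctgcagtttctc
Irgm1: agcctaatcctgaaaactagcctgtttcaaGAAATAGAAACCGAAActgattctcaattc
Gbp3: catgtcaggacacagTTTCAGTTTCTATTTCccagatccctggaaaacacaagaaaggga
Irf1: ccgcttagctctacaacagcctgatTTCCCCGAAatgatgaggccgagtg

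Isg15 had 3 overlapping ISRE cores in the stretch shown, and the other ISRE promoters shown had 2 each. The 65 bases shown for Ifit3 and Ifit3b were identical at all 65 positions, and these genes are close copies of each other. Irf1 had a GAS core and no ISRE core, as is known for this interferon gamma target. A match is a description of these letters and does not show that a factor binds there. The 15 members with an ISRE core were Bst2, Gbp2, Gbp3, Gbp7, Ifit1, Ifit3, Ifit3b, Igtp, Irgm1, Isg15, Oas1a, Oas3, Rsad2, Stat2 and Trim30a. The 7 with a GAS core were Bst2, Eif2ak2, Gbp7, Ifit2, Igtp, Irf1 and Oas1a.

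Each library held between 22.3 M and 34.5 M estimated counts. The 10 epithelial marker genes were detected in every group and summed to between 10230 and 29950 TPM (transcripts scaled for gene length and to a fixed library sum) per library. The 12 genes of a p53 target list, which check the drug label, were all higher with 5-FU in both matrices. VIL stood apart by genes of other cells. Its 15 macrophage and myeloid markers summed to 1355, 4201 and 6410 TPM, against 179 to 228 TPM in COL_cWRNE and 24.8 to 118 TPM in the libraries of the other 4 groups, and its 15 mesenchyme markers summed to 26.4, 341 and 344 TPM, against at most 7.61 TPM in every other library. Of the 15 macrophage and myeloid markers COL_cWRNE was at 0 counts for Ptprc, Adgre1, C1qa, C1qb, C1qc and Tyrobp. All of these but C1qa were at 0 in COL_Control and COL_5FU too. Adgre1, C1qb, C1qc and Tyrobp were also at 0 in MG_Control, and Adgre1 in MG_5FU. COL_Control replicate 3 held 738 counts of Y-linked genes beside 4893 counts of Xist, while the other 11 libraries of replicates 1 and 3 held at most 1 Y-linked count and those of replicate 2 at least 3323. Counts of members without COL_Control replicate 3 are given below, as are printed values of named genes that it moves by over 1.5 times in fold, and counts with VIL replicate 1 as the only library of VIL.

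**Figure D1:**
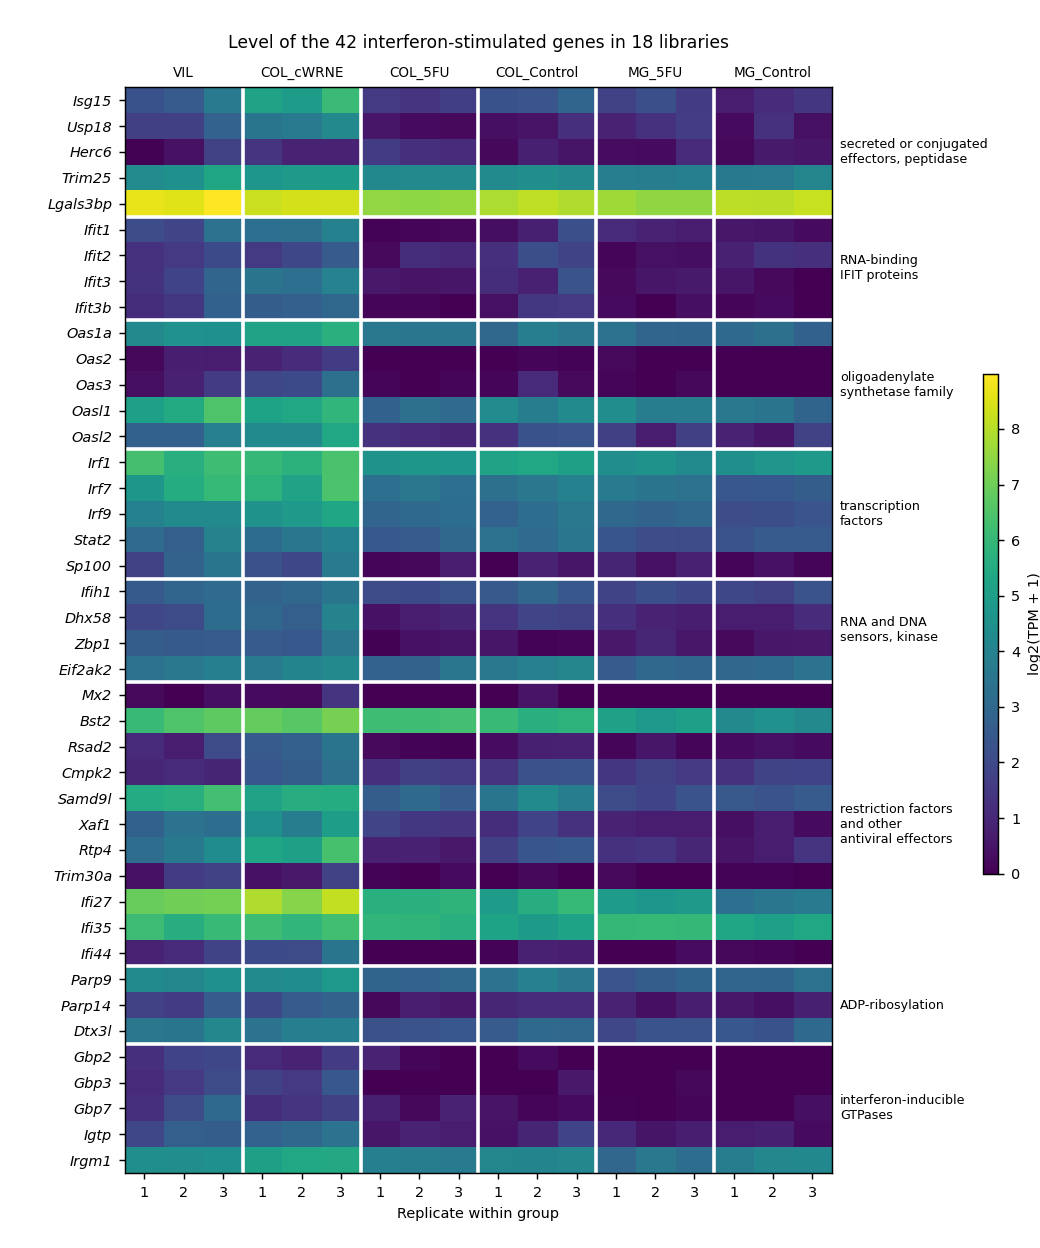
Level of each of the 42 members in each library as log2(TPM + 1), with the 6 groups as columns (3 replicates each) and the members as rows grouped by role. COL_cWRNE and VIL are the brightest columns for most rows, Lgals3bp is the brightest row in every group, Mx2 is dark in every group, and Oas2 and the GTPase genes Gbp2 and Gbp3 are dark outside COL_cWRNE and VIL.

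On the deposited TPM scale, which allows levels of different genes to be compared, the mean summed level of the 41 members other than Lgals3bp was highest in COL_cWRNE and lowest in MG_Control, and with Lgals3bp it was lowest in MG_5FU. The 41 members other than Lgals3bp summed to 620, 669 and 935 TPM in VIL, 984, 878 and 1404 TPM in COL_cWRNE, 311, 322 and 327 TPM in COL_5FU, 311, 351 and 382 TPM in COL_Control, 254, 239 and 241 TPM in MG_5FU, and 174, 188 and 207 TPM in MG_Control. VIL and COL_cWRNE overlapped, as did COL_5FU and COL_Control, and MG_5FU lay above MG_Control without overlap. A mean of at least 1 TPM was reached by 38 members in VIL, 41 in COL_cWRNE, 22 in COL_5FU, 29 in COL_Control, 22 in MG_5FU and 21 in MG_Control. The next counts use means in CPM (counts scaled to library totals with TMM factors) in place of TPM. Mean CPM was highest in COL_cWRNE for 31 of 42 members and in VIL for 9. It was lowest in MG_Control for 21 and in COL_5FU for 12.

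Among the members, Lgals3bp, a secreted galectin-binding glycoprotein, had the highest level in every group, with 428 ± 69.4 TPM in VIL and 182 ± 8.05 TPM in COL_5FU at the ends of its range (SD, n = 3). The next 4 in both VIL and COL_cWRNE were Ifi27, Bst2, Irf1 and Ifi35, of which Ifi27 reached 129 ± 10.6 and 229 ± 62.5 TPM and Bst2, which encodes tetherin, 87.5 ± 20.6 and 118 ± 19.5 TPM. In MG_Control the next were Ifi35 at 37.3 ± 4.08 TPM, Irf1 at 24.4 ± 3.11 TPM and Bst2 at 19.2 ± 2.68 TPM. The 5 most abundant of the 41 members held 49.7% of their summed mean TPM in COL_cWRNE, against 57.9% in MG_Control.

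The rarest members were Oas2, Mx2, Gbp2 and Gbp3, with 0 counts over the 3 libraries of MG_Control. Mx2 and Gbp2 were also at 0 in MG_5FU, and Oas2, Ifi44 and Gbp3 in COL_5FU, where a count of 0 allows up to 3 counts in the group. Fewer than 10 counts in every library were found for 8 members in COL_5FU, 3 in COL_Control, 4 in MG_5FU and 9 in MG_Control, and for 0 in VIL and COL_cWRNE. Within COL_cWRNE, replicate 3 was the highest of the 3 libraries for 39 of 42 members, and within VIL replicate 3 for 33 of 42.

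**Figure D2:**
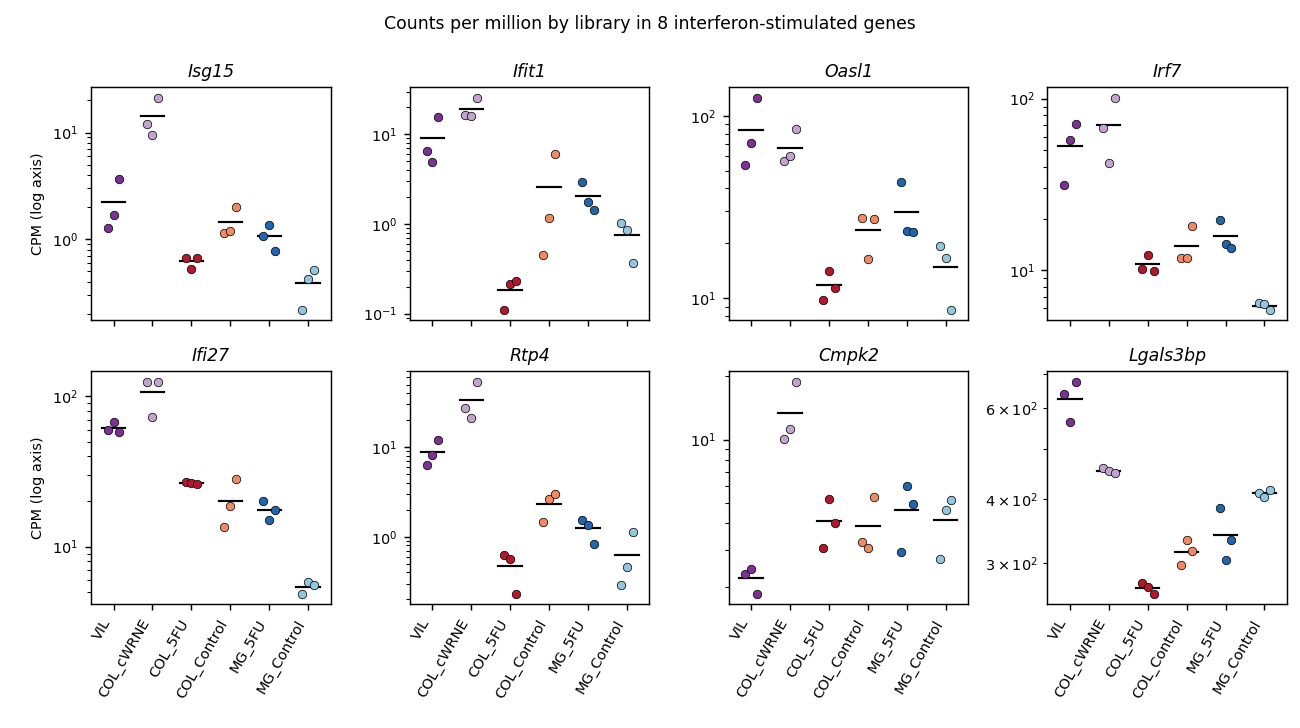
CPM (counts scaled to library totals with TMM factors over the 18 libraries, log axis) of 8 members in each library, with the group mean as a bar and groups in the order of the heat map. The group mean of Isg15, Ifit1, Irf7, Ifi27, Rtp4 and Cmpk2 is highest in COL_cWRNE and that of Oasl1 and Lgals3bp in VIL, and Cmpk2 is lower in VIL than in every other library shown.

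The comparison of COL_cWRNE with COL_Control, crypt cultures in collagen that differ in medium, showed most members higher in the cWRNE medium. All 42 had a positive log2 fold change, and 35 of 42 passed edgeR's quasi-likelihood test at an adjusted p under 0.05 (called here), while 0 were lower. That was 83.3% of the members, against 13.1% of all 17708 genes tested that were higher and 4.85% that were lower. The members' median log2 fold change was 2.34, against 0.00 over all genes. The 7 that did not pass were Herc6, Trim25, Ifit2, Ifit3b, Stat2, Eif2ak2 and Mx2. Scaled by library totals alone, 34 members were called higher, while the genes called over the whole table were 1624 higher and 1966 lower, against 2325 higher and 859 lower with TMM. Gbp2, Gbp3, Mx2, Oas2, Trim30a and Zbp1 failed the filter on low counts in the fit without COL_cWRNE and VIL, so they were tested here only through the groups where they are high, and the count of 35 is a description that includes 5 of them. Of the other 36 members 30 were called higher. With a library left out the count of members was lowest, at 26, without COL_cWRNE replicate 3, and it was 29 without COL_Control replicate 3. Without COL_Control replicate 3 the log2 fold change was 5.39 for Usp18, 4.57 for Ifit1, 3.55 for Ifit3 and 3.73 for Igtp, each larger than with it.

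Among the effectors, Isg15 (ENSMUSG00000035692.8), the ubiquitin-like modifier that is conjugated to other proteins, stood at 12.04, 9.44 and 21.1 CPM in COL_cWRNE and 1.15, 1.19 and 1.99 CPM in COL_Control. The groups did not overlap, and replicate 3 was the highest in each. Isg15 rose by 3.298 ± 0.46 (log2 fold change ± SE, edgeR adjusted p = 0.000147). Usp18 (ENSMUSG00000030107.11), the peptidase that removes Isg15 from proteins and dampens the type I receptor, had 13.1, 14.4 and 21.2 CPM in COL_cWRNE and 0.3502, 0.406 and 1.56 CPM in COL_Control. It rose by 4.396 ± 0.75 (edgeR adjusted p = 0.00075), the largest change among the called members with at least 10 CPM. Lgals3bp moved least of the called members, at 459, 454 and 449.6 CPM in COL_cWRNE and 298, 333 and 318 CPM in COL_Control, a log2 fold change of 0.52 ± 0.10 (edgeR adjusted p = 0.00153).

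The IFIT proteins bind viral RNA and block its translation. Ifit1 (ENSMUSG00000034459.9) had 16.6, 15.8 and 25.4 CPM in COL_cWRNE and 0.446, 1.15 and 6.09 CPM in COL_Control, where replicate 3 was the highest yet below every COL_cWRNE library. Ifit1 rose by 2.92 ± 0.71 (edgeR adjusted p = 0.00899) and Ifit3 by 2.57 ± 0.77 (edgeR adjusted p = 0.0291). The call of Ifit3 ended without COL_Control replicate 1 or 2 or without any 1 library of COL_cWRNE, with adjusted p up to 0.116. Ifit3 and Ifit3b share so much sequence that reads may be split between them, so their single values are uncertain.

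All 5 genes of the oligoadenylate synthetase family, whose products activate RNase L or resemble those that do, were called higher. Oas3 (ENSMUSG00000032661.10) had 10.2, 9.69 and 28.8 CPM in COL_cWRNE and 0.3502, 1.69 and 0.5796 CPM in COL_Control and rose by 4.21 ± 0.86 (edgeR adjusted p = 0.00275). Oasl2 stood at 28.4, 24.1 and 56.5 CPM in COL_cWRNE and 1.72, 3.72 and 4.96 CPM in COL_Control and rose by 3.39 ± 0.47 (edgeR adjusted p = 0.000151). Oas1a, at 49.95, 45.1 and 65.7 CPM in COL_cWRNE and 9.11, 15.2 and 13.7 CPM in COL_Control, rose by 2.08 ± 0.25, and it too has close copies in the genome. The groups did not overlap for any of these.

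Of the transcription factors, Irf7 (ENSMUSG00000025498.16), which drives interferon genes and is induced by them, had 67.8, 41.97 and 101 CPM in COL_cWRNE and 11.7, 11.7 and 18.00 CPM in COL_Control and rose by 2.35 ± 0.32 (edgeR adjusted p = 0.000109). Irf9 (ENSMUSG00000002325.16), the DNA-binding part of ISGF3, had 41.1, 43.7 and 59.9 CPM in COL_cWRNE and 8.72, 11.2 and 18.1 CPM in COL_Control and rose by 1.93 ± 0.22 (edgeR adjusted p = 3.09e-05). Irf1, with 97.7, 78.3 and 119.6 CPM in COL_cWRNE and 50.4, 51.5 and 46.98 CPM in COL_Control, rose by 0.99 ± 0.17. Stat2, the ISGF3 subunit, overlapped between the groups, at 26.1, 30.5 and 39.2 CPM in COL_cWRNE and 21.9, 20.3 and 27.1 CPM in COL_Control, and did not pass (edgeR adjusted p = 0.243). Of the sensors, Zbp1, which recognises Z-form nucleic acid, rose by 5.18 ± 0.61, Dhx58 by 2.396 ± 0.45 and Ifih1, which encodes MDA5, by 0.796 ± 0.20, while Eif2ak2, the kinase PKR, stood at 0.303 ± 0.16 (edgeR adjusted p = 0.218).

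Of 11 restriction factors and other effectors 10 were called higher, the exception being Mx2. Rtp4 (ENSMUSG00000033355.7) had 27.1, 21.2 and 53.4 CPM in COL_cWRNE and 1.47, 2.61 and 2.97 CPM in COL_Control and rose by 3.85 ± 0.50 (edgeR adjusted p = 7.70e-05). Rsad2, which encodes viperin, had 14.4, 15.3 and 24.4 CPM in COL_cWRNE and 0.573, 1.73 and 1.96 CPM in COL_Control and rose by 3.67 ± 0.67. Ifi27 (ENSMUSG00000064215.14) had 124, 73.1 and 125 CPM in COL_cWRNE and 13.4, 18.8 and 28.4 CPM in COL_Control and rose by 2.41 ± 0.24 (edgeR adjusted p = 1.10e-05). No library of these genes overlapped between the groups. Bst2, at 46.2, 36.99 and 51.6 CPM in COL_cWRNE and 24.3, 16.6 and 20.00 CPM in COL_Control, rose by 1.15 ± 0.20.

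All 5 interferon-inducible GTPases, which act on membranes around intracellular microbes, were called higher. Igtp had 9.29, 10.00 and 13.8 CPM in COL_cWRNE and 0.478, 1.15 and 3.405 CPM in COL_Control and rose by 2.72 ± 0.63 (edgeR adjusted p = 0.00687), and Irgm1 rose by 1.36 ± 0.15 (edgeR adjusted p = 2.58e-05). Gbp2, a guanylate-binding protein gene, had 2.13, 1.44 and 3.54 CPM in COL_cWRNE and 0, 0.339 and 0 CPM in COL_Control, where all its counts came from replicate 2. Gbp2 rose by 4.34 ± 1.33 (edgeR adjusted p = 0.0411). The calls of Gbp2, Gbp3 and Gbp7 ended when any 1 library of COL_cWRNE was left out, when some COL_Control libraries were, and for Gbp2 and Gbp3 without VIL replicate 2, with adjusted p up to 0.13. The replicate block ended the calls of Gbp2 and Trim30a (adjusted p = 0.0661 and 0.071). The 3 genes of ADP-ribosylation, Parp9 with its partner Dtx3l and Parp14, rose by 1.00 to 1.94. The 15 members with an ISRE core had a median log2 fold change of 2.92 with 13 called. The 18 without one had a median of 1.41 with 14 called, and the 9 without a promoter entry 2.41 with 8 called. These values are given without a test. Gbp2, Gbp3 and Trim30a of the 15, and Oas2, Zbp1 and Mx2 of the 9, were tested here only through the groups where they are high.

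Other genes of the pathway were read in the same fit. The 21 interferon ligand genes had 7 counts in all over the COL_cWRNE libraries and 12 over those of COL_Control, and 0 of them passed the filter on low counts. Of 10 receptor and JAK-STAT genes 3 rose and 0 fell, the higher ones being Il10rb (0.44 ± 0.12), Jak2 (0.69 ± 0.18) and Stat3 (0.42 ± 0.12), while the receptor genes Ifnar1, Ifngr1 and Ifnlr1 stood at 0.405 ± 0.19, 0.28 ± 0.11 and 0.18 ± 0.31 and did not pass. Of 43 further interferon-induced genes tested 19 rose and 1, Ifi30, fell. The smallest adjusted p among them belonged to Ifi47 (3.39 ± 0.39), Shisa5 (0.91 ± 0.11), Psmb8 (1.91 ± 0.28), a subunit of the immunoproteasome, and Oas1g (2.76 ± 0.40). Among 15 nucleic acid sensing genes tested, Ddx60 rose by 2.93 ± 0.55, Rigi by 0.93 ± 0.22 and Tlr3 by 0.78 ± 0.22, whereas Cgas, the cytosolic DNA sensor, changed by -0.87 ± 0.21 and Myd88 by -0.55 ± 0.17; Sting1 did not pass (0.64 ± 0.29). Of 15 negative regulators 4 rose and 1 fell, Socs3 by 1.41 ± 0.29 and Adar, which edits double-stranded RNA, by 0.796 ± 0.17. Of the macrophage and myeloid markers 3 of 15 rose with the medium, Csf1r, Cd68 and Cd74, and their part in the result was not tested.

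**Figure D3:**
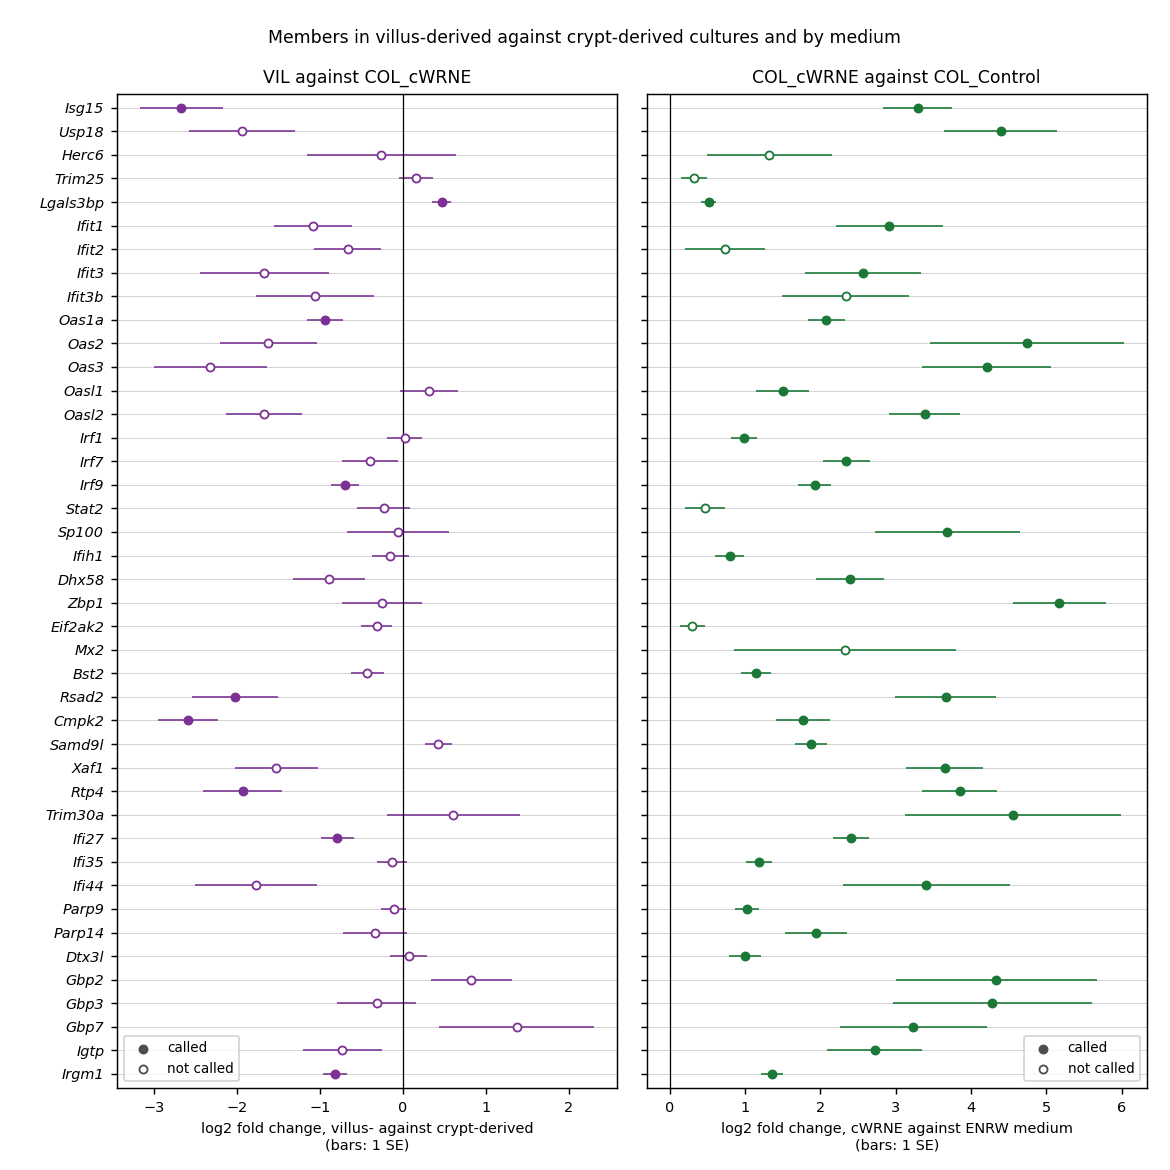
Log2 fold change of each member, with bars of 1 SE and filled points for members called at an edgeR adjusted p under 0.05, for VIL against COL_cWRNE on the left and COL_cWRNE against COL_Control on the right. Every point on the right lies above 0, and 32 of the 41 points on the left lie below 0, of which 8 are filled.

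Set against MG_Control, COL_cWRNE had 39 of 41 tested members higher and 0 lower by edgeR, 95.1% of those tested, against 20.1% of all genes tested that were higher and 13.1% that were lower. Herc6 and Lgals3bp did not pass, and Mx2 failed the filter on low counts. The median log2 fold change of the 41 was 3.45, and it was the same with genes at 0 counts set to their bound. Several of these members passed the filter only through their level in COL_cWRNE or VIL, so this count is a description and not support for a direction. Among called members with at least 10 CPM the largest changes were those of Oas3, Rtp4, Ifit3 (5.52 ± 0.96) and Isg15. Rtp4 had 0.293, 0.465 and 1.12 CPM in MG_Control and was higher in COL_cWRNE by 5.67 ± 0.58 (edgeR adjusted p = 0.000118), and Isg15, with 0.2195, 0.429 and 0.516 CPM in MG_Control, by 5.12 ± 0.57 (edgeR adjusted p = 0.000202). Oas3 had 1456 counts over COL_cWRNE and 2 over MG_Control, a ratio of 712 with a 95% counting interval of 197 to 5885. Gbp3, Oas2 and Gbp2, at 0 counts in MG_Control, were at least 138-fold, 112-fold and 69.7-fold higher, against a floor of 3 counts over the group. Matrix, medium and their joint effect cannot be told apart here.

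VIL against COL_cWRNE compared villus-derived with crypt-derived cultures in the same matrix and medium. Of 41 members tested, 1 was higher and 8 lower by edgeR, 2.44% and 19.5%, against 5.68% higher and 1.96% lower among all 16699 genes tested. The median of the members was -0.43, and it was -0.03 over all genes. Lower in VIL were Isg15, Oas1a, Irf9, Rsad2, Cmpk2, Rtp4, Ifi27 and Irgm1, and higher was Lgals3bp. Of these 9 calls only that of Cmpk2 held when each library was left out in turn; the number lower ranged from 1, without COL_cWRNE replicate 3, to 9, without VIL replicate 3. With VIL replicate 1, the library of VIL with the fewest macrophage and mesenchyme transcripts, as the only villus-derived library, 1 member was higher and 5 lower, and 932 of all 18256 genes tested were higher and 391 lower. That fit takes the spread from the other groups and assumes that the lone library varies like them.

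Cmpk2 (ENSMUSG00000020638.9), a mitochondrial nucleotide kinase, had 2.29, 2.44 and 1.86 CPM in VIL and 10.1, 11.2 and 18.8 CPM in COL_cWRNE. The VIL libraries lay close together and far below COL_cWRNE, and Cmpk2 changed by -2.59 ± 0.36 (edgeR adjusted p = 0.00455). Isg15 had 1.28, 1.697 and 3.71 CPM in VIL and, as given above, at least 9.44 CPM in COL_cWRNE, and changed by -2.67 ± 0.50 (edgeR adjusted p = 0.0141). The call was lost without COL_cWRNE replicate 1 or 3 or VIL replicate 2, with adjusted p up to 0.0747. Rsad2 had 3.34, 1.76 and 8.24 CPM in VIL and Rtp4 had 6.33, 8.15 and 12.1 CPM, all below every COL_cWRNE library. Rsad2 changed by -2.02 ± 0.52, a call that held only without VIL replicate 3 (adjusted p up to 0.177). Rtp4 changed by -1.93 ± 0.47, a call that ended without MG_Control replicate 2, VIL replicate 1 or 2 or any 1 library of COL_cWRNE (adjusted p up to 0.181).

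Irgm1 (ENSMUSG00000046879.8) had 35.6, 33.05 and 31.7 CPM in VIL and 54.7, 60.5 and 62.5 CPM in COL_cWRNE, without overlap, and changed by -0.82 ± 0.14 (edgeR adjusted p = 0.0103), a call that ended without COL_cWRNE replicate 2 or 3 (adjusted p up to 0.066). Irf9 had 26.5, 31.4 and 30.96 CPM and Ifi27 59.4, 68.1 and 58.3 CPM in VIL, with log2 fold changes of -0.695 ± 0.17 and -0.79 ± 0.20, and the call of Irf9 held only without VIL replicate 3 and that of Ifi27 only without COL_cWRNE replicate 2 (adjusted p up to 0.188 and 0.2). Oas1a, at 25.6, 31.1 and 26.7 CPM in VIL, changed by -0.94 ± 0.22, a call that held only without MG_Control replicate 2 or 3 (adjusted p up to 0.146). Lgals3bp, at 639.7, 563 and 674 CPM in VIL, was higher by 0.47 ± 0.11 (edgeR adjusted p = 0.0381), a call that held only without VIL replicate 1 or 3 (adjusted p up to 0.12). A replicate block ended the calls of Oas1a, Irf9, Ifi27 and Lgals3bp.

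Several members with high levels in both groups did not pass. Irf7 had 31.2, 57.8 and 70.8 CPM in VIL, overlapping COL_cWRNE, and stood at -0.39 ± 0.33 (edgeR adjusted p = 0.545). Irf1 had 99.5 ± 26.6 CPM in VIL (SD, n = 3) and stood at 0.02 ± 0.21. Samd9l, an antiviral translation inhibitor, had 178, 179 and 258 CPM in VIL and 129, 162 and 166 CPM in COL_cWRNE. All its VIL libraries were above those of COL_cWRNE, and it stood at 0.43 ± 0.17 (edgeR adjusted p = 0.158). Ifit1, at 6.52, 4.97 and 15.8 CPM in VIL, stood at -1.09 ± 0.47, and Oasl2, at 8.89, 9.57 and 15.6 CPM, at -1.67 ± 0.46 (edgeR adjusted p = 0.0583); neither overlapped with COL_cWRNE. Bst2 (-0.43 ± 0.20), Stat2 (-0.23 ± 0.32), Gbp2 (0.83 ± 0.49), Igtp (-0.73 ± 0.48) and Ifit3 (-1.67 ± 0.78) did not pass. Among 10 receptor and JAK-STAT genes the largest change was that of Stat3, which did not pass (0.52 ± 0.15, edgeR adjusted p = 0.0741).

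Of the 15 macrophage and myeloid markers 12 were higher in VIL than in COL_cWRNE, among them Lyz2, C1qb and Tyrobp, and 11 of 11 tested mesenchyme markers were higher. Of 5 markers of plasmacytoid dendritic cells, Siglech was at 0 counts in every group but VIL. The sum of the 5 overlapped, at 146.5 to 186.4 TPM in VIL and 128 to 176.4 TPM in COL_cWRNE. Bst2 belongs to both that marker list and the members. The part of such cells in the VIL values was not tested. In bulk RNA fewer cells of a type and less RNA per cell cannot be told apart. In VIL replicates 1, 2 and 3 the 41 members other than Lgals3bp summed to 620, 669 and 935 TPM. In the same order macrophage and myeloid markers summed to 1355, 4201 and 6410 TPM and mesenchyme markers to 26.4, 341 and 344 TPM. How these sums relate was not tested.

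VIL against MG_Control had 37 of 41 tested members higher and 1 lower by edgeR, 90.2% and 2.44%, against 27% of all genes that were higher and 19.7% that were lower. The median was 2.50. The largest changes among members with at least 10 CPM were those of Samd9l, at 15.04, 14.3 and 15.8 CPM in MG_Control and higher in VIL by 3.72 ± 0.18 (edgeR adjusted p = 1.26e-05), of Ifi27 (3.47 ± 0.22), Parp14 (3.06 ± 0.43) and Irf7 (3.05 ± 0.37). Gbp2, Gbp3 and Oas2 were at least 123-fold, 111-fold and 36.3-fold higher than a floor of 3 counts over MG_Control. Cmpk2 was the lower one (-0.97 ± 0.35, edgeR adjusted p = 0.0466), a call that held in 1 of 9 fits with a library left out and ended with a replicate block. Oas2, Gbp2, Gbp3, Trim30a and Zbp1 entered this fit only through VIL and COL_cWRNE, so the count of 37 is a description that includes all 5. Of the other 36 members 32 were higher and 1 lower. Among those 36, Ifit3b, Oas3, Sp100 and Ifi44 had under 10 counts in every MG_Control library. They too entered through VIL and COL_cWRNE, so the count of 32 is also a description. All 15 macrophage markers were higher too, and their part in the result was not tested. With VIL replicate 1 as the only library of VIL, under the same assumption on its spread, 32 members were higher and 0 lower, and 2955 of all genes were higher and 1682 lower. The comparisons that use MG_Control share its libraries, as do those that use COL_Control or COL_cWRNE, so they are not independent of one another.

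COL_Control against MG_Control compared untreated crypt cultures in collagen with ENRW and in Matrigel with ENR. Of 36 members tested, 15 were higher and 1 lower by edgeR, 41.7% and 2.78%, against 15.8% higher and 15.4% lower among all 16611 genes tested. The median was 0.86, against 0.04 over all genes. The even split over all genes depends on the scaling: library totals gave 3159 genes higher and 2131 lower, with 17 members higher and 1 lower, and limma on TPM gave 3538 and 1325 genes, with 16 and 0 members. Oas2, Zbp1, Mx2, Trim30a, Gbp2 and Gbp3 failed the filter on low counts in this fit. Ifit3b and Ifi44 passed it through COL_Control, where they are highest among the groups of this fit, so a call of either is a description. The number higher fell to 9 without COL_Control replicate 3, the library with 738 Y-linked counts beside 4893 of Xist, and to 10 without MG_Control replicate 2.

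Of the transcription factors 4 of 5 were higher. Irf7 had 11.7, 11.7 and 18.00 CPM in COL_Control and 6.403, 6.36 and 5.89 CPM in MG_Control, without overlap, and was higher by 1.14 ± 0.21 (edgeR adjusted p = 0.0011). Stat2, with 21.9, 20.3 and 27.1 CPM in COL_Control and 12.6, 14.3 and 14.1 CPM in MG_Control, was higher by 0.75 ± 0.16, and Irf1, with 34.1, 37.98 and 37.9 CPM in MG_Control, by 0.43 ± 0.11. Irf9, at 7.13, 6.54 and 7.47 CPM in MG_Control, was higher by 0.84 ± 0.23, a call that ended without COL_Control replicate 3 or MG_Control replicate 2 (adjusted p up to 0.0802).

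Ifi27 had 13.4, 18.8 and 28.4 CPM in COL_Control and 4.87, 5.82 and 5.59 CPM in MG_Control and was higher by 1.89 ± 0.24 (edgeR adjusted p = 4.97e-05). Samd9l, with 33.1, 49.9 and 41.7 CPM in COL_Control, was higher by 1.46 ± 0.21, and Bst2, with 7.98, 9.33 and 6.41 CPM in MG_Control, by 1.35 ± 0.19. None of these overlapped between the groups. Isg15 was higher by 1.86 ± 0.49 and Ifit3 by 3.001 ± 0.94, and both calls ended without COL_Control replicate 3, that of Ifit3 also without MG_Control replicate 2 (adjusted p up to 0.0531 and 0.164). Ifit1 (1.78 ± 0.77), Oasl2 (0.82 ± 0.47), Oas1a (0.25 ± 0.25) and Igtp (1.05 ± 0.72) did not pass. Without COL_Control replicate 3 the log2 fold change was 0.096 for Ifit1, 0.0034 for Igtp and 1.99 for Ifit3. Lgals3bp was the lower one, at 298, 333 and 318 CPM in COL_Control and 410.1, 404 and 417 CPM in MG_Control (-0.38 ± 0.09, edgeR adjusted p = 0.00603).

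Among 10 receptor and JAK-STAT genes 4 were higher and 0 lower, the higher ones being Stat3, Tyk2, Ifnar2 and Ifnlr1 (0.83 ± 0.24). Of 14 sensing genes tested 4 rose and 1 fell, with Irf5 at 1.64 ± 0.34, Tlr3 at 0.84 ± 0.19, Rigi at 0.91 ± 0.24, Sting1 at 1.09 ± 0.29 and Ticam1 at -0.47 ± 0.13. Of 32 further interferon-induced genes 7 rose and 6 fell, with Lgals9 at -1.44 ± 0.11, Shisa5 at 1.03 ± 0.10, Psmb10 at -1.09 ± 0.16 and Slfn2 at 2.59 ± 0.44. Macrophage and myeloid markers summed to 54.0 to 96.0 TPM in COL_Control and 24.8 to 28.9 TPM in MG_Control. Of 7 tested, 4 were higher. Ptprc, Adgre1, C1qb, C1qc, Tyrobp and Ms4a7 were at 0 counts in COL_Control, and all of these but Ptprc in MG_Control too.

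**Figure D4:**
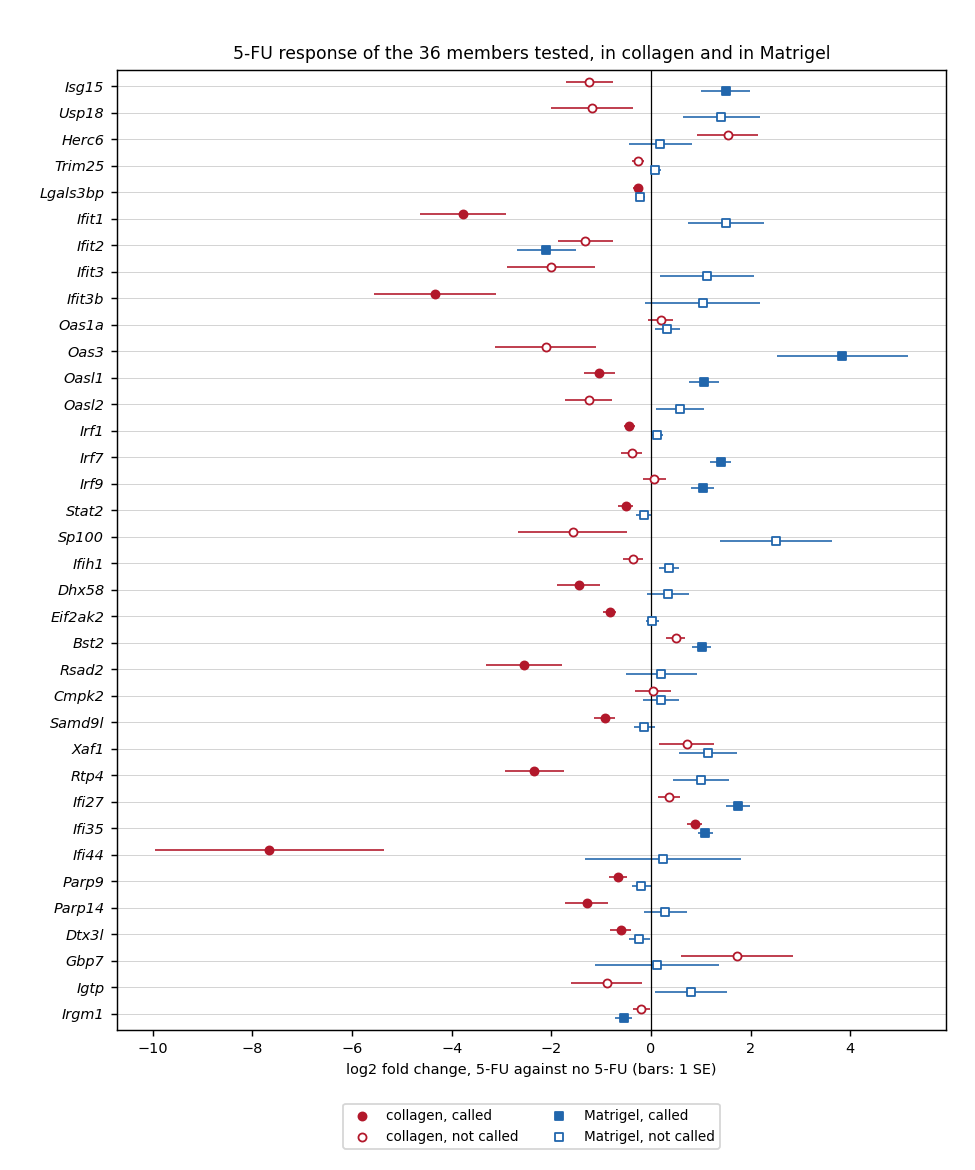
Log2 fold change with 5-FU of the 36 members tested, in collagen (circles, COL_5FU against COL_Control) and in Matrigel (squares, MG_5FU against MG_Control), with bars of 1 SE and filled symbols for members called at an edgeR adjusted p under 0.05. Most circles lie below 0 and most squares above it, and the point of Ifi44 in collagen is a fitted value against a group at 0 counts.

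The 5-FU comparison in collagen set COL_5FU against COL_Control. Of 36 members tested, 1 was higher and 15 lower by edgeR, 2.78% and 41.7%, against 18.6% higher and 16.7% lower among all genes tested, and with a replicate block 2 were higher and 16 lower. Ifit3b (14, 63 and 68 counts in COL_Control) and Ifi44 (3, 39 and 34) are among the 15 and passed the filter on low counts through COL_Control. They are highest there among the groups of this fit, so their calls are a description. The median was -0.75, and it was -0.03 over all genes. With library totals 1 member was higher and 18 lower, and 2477 of all genes were higher and 3461 lower, against 3094 and 2768 with TMM. The number of members lower was 7 without COL_Control replicate 3, 8 without COL_5FU replicate 1 and 9 without COL_Control replicate 2, and 7 of the 16 calls held in every fit with a library left out.

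Ifit1 had 0.111, 0.213 and 0.232 CPM in COL_5FU and 0.446, 1.15 and 6.09 CPM in COL_Control. The groups did not overlap, and COL_Control replicate 3 was far above the other libraries. Ifit1 fell by 3.77 ± 0.87 in log2 units (edgeR adjusted p = 0.00417), and by 2.09 without COL_Control replicate 3 (edgeR adjusted p = 0.0318). Rtp4, with 0.628, 0.568 and 0.232 CPM in COL_5FU, fell by 2.34 ± 0.58 (edgeR adjusted p = 0.00682), and Ifit3b by 4.33 ± 1.22. Ifit3 had 0.702, 0.497 and 0.5505 CPM in COL_5FU, below each COL_Control library, which held 1.47, 0.812 and 4.601 CPM, and did not pass (edgeR adjusted p = 0.0974), with a log2 fold change of -0.99 without COL_Control replicate 3. Ifi44 had 0 counts over COL_5FU and 76 over COL_Control and was at least 26.4-fold lower against a floor of 3 counts over the group, a call that ended in 5 of 12 fits with a library left out.

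Among called members with at least 10 CPM, Oasl1, Samd9l, Eif2ak2 and Parp9 had the largest decreases. Eif2ak2 (ENSMUSG00000024079.5), the kinase PKR that halts translation on double-stranded RNA, had 17.1, 16.5 and 20.2 CPM in COL_5FU and 27.6, 32.8 and 33.5 CPM in COL_Control and fell by 0.83 ± 0.13 (edgeR adjusted p = 0.000351). Samd9l, with 21.1, 27.4 and 18.7 CPM in COL_5FU, fell by 0.93 ± 0.21 (edgeR adjusted p = 0.00386). Oasl1 (ENSMUSG00000041827.16) had 9.75, 14.1 and 11.4 CPM in COL_5FU and 27.5, 16.4 and 27.1 CPM in COL_Control and fell by 1.04 ± 0.31 (edgeR adjusted p = 0.0183), a call that ended without COL_Control replicate 1 or 3 or COL_5FU replicate 1. None of these overlapped between the groups.

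All 3 genes of ADP-ribosylation fell, Parp9 by 0.66 ± 0.18, Parp14 by 1.29 ± 0.43 and Dtx3l by 0.61 ± 0.22, and the calls ended in 1, 4 and 7 of 12 fits with a library left out. Irf1, with 36.4, 42.02 and 34.4 CPM in COL_5FU, fell by 0.43 ± 0.11 (edgeR adjusted p = 0.00927), and Stat2, with 14.96, 17.4 and 17.4 CPM, by 0.51 ± 0.16. The Stat2 call ended without COL_Control replicate 3 or COL_5FU replicate 1 or 2. Dhx58 fell by 1.45 ± 0.43, Rsad2 by 2.55 ± 0.76 and Lgals3bp by 0.27 ± 0.09, and each of these calls ended without COL_Control replicate 3, among other libraries (adjusted p up to 0.117). Isg15, at 0.665, 0.532 and 0.666 CPM in COL_5FU, lay below every COL_Control library and did not pass (-1.24 ± 0.48, edgeR adjusted p = 0.0593). Irf7 (-0.39 ± 0.21), Irf9 (0.07 ± 0.23), Oas1a (0.196 ± 0.25), Oasl2 (-1.25 ± 0.48), Bst2 (0.49 ± 0.19), Igtp (-0.89 ± 0.71) and Ifi27 (0.36 ± 0.22) did not pass, and Igtp stood at 0.16 without COL_Control replicate 3.

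Ifi35 (ENSMUSG00000010358.14), a leucine zipper protein of the interferon response, was the member called higher with 5-FU in collagen. It had 54.00, 52.95 and 39.98 CPM in COL_5FU and 28.6, 20.5 and 28.98 CPM in COL_Control, without overlap, and rose by 0.88 ± 0.15 (edgeR adjusted p = 0.000437). Herc6, Bst2 and Xaf1 also lay higher in COL_5FU without overlap and did not pass, at 1.54 ± 0.61, 0.49 ± 0.19 and 0.72 ± 0.55 (edgeR adjusted p = 0.0664, 0.0556 and 0.339). Bst2 was called higher with the replicate block, and both Bst2 and Herc6 with DESeq2. Of 32 further interferon-induced genes tested 5 rose and 7 fell, Tap1, a peptide transporter of antigen presentation, by 2.38 ± 0.17, Tor3a by 0.91 ± 0.14, Parp10 by 1.08 ± 0.17 and Psmb10 by -0.95 ± 0.16. Of 10 receptor and JAK-STAT genes 3 rose and 1 fell, with Ifnar2 at 0.98 ± 0.14, Il10rb at 0.97 ± 0.12, Stat3 at 0.36 ± 0.09 and Jak2 at -0.54 ± 0.16. Of 14 sensing genes tested 3 rose and 2 fell, with Irf5 at 1.34 ± 0.33, Myd88 at 0.996 ± 0.11, Ikbke at 0.59 ± 0.16, Ticam1 at -0.77 ± 0.13 and Cgas at -0.62 ± 0.15 (edgeR adjusted p = 0.00609), while Sting1 did not pass (-0.42 ± 0.28). Macrophage markers summed to 90.0 to 118 TPM in COL_5FU and 54.0 to 96.0 TPM in COL_Control, with 1 of 7 tested higher and 2 lower. Epithelial markers summed to 20340 to 23540 TPM in COL_5FU and 13930 to 15010 TPM in COL_Control. Of the p53 targets, Mdm2 stood at 3.05 ± 0.13 and Cdkn1a at 2.31 ± 0.19.

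The 5-FU comparison in Matrigel set MG_5FU against MG_Control. Of 36 members tested, 8 were higher and 2 lower by edgeR, 22.2% and 5.56%, against 19.2% higher and 11.7% lower among all genes tested, so the share higher lay near that of all genes. The median was 0.35, against 0.06 over all genes. Higher were Isg15, Oas3, Oasl1, Irf7, Irf9, Bst2, Ifi27 and Ifi35, and lower were Ifit2 and Irgm1. With library totals 8 members were higher and 3 lower, while 2444 of all genes were higher and 3031 lower, against 3188 and 1940 with TMM. The number higher fell to 5 without MG_5FU replicate 1, and 5 of the 10 calls held in every fit with a library left out.

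Ifi27, an interferon-induced protein of mitochondria, had 20.3, 15.04 and 17.6 CPM in MG_5FU and 4.87, 5.82 and 5.59 CPM in MG_Control and rose by 1.75 ± 0.24 (edgeR adjusted p = 7.88e-05). Irf7 had 19.6, 14.2 and 13.4 CPM in MG_5FU and 6.403, 6.36 and 5.89 CPM in MG_Control and rose by 1.395 ± 0.21 (edgeR adjusted p = 0.000228). Ifi35 had 73.8, 65.9 and 68.1 CPM in MG_5FU and 36.9, 30.6 and 33.7 CPM in MG_Control and rose by 1.09 ± 0.15 (edgeR adjusted p = 7.27e-05). In all of these the 3 drug-treated libraries lay above the 3 untreated ones. Bst2, with 18.6, 12.1 and 15.5 CPM in MG_5FU, rose by 1.02 ± 0.19, and Irf9, with 15.8, 12.8 and 13.2 CPM, by 1.04 ± 0.23 (edgeR adjusted p = 0.00384).

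The other calls were less stable. Isg15, at 1.07, 1.36 and 0.784 CPM in MG_5FU, rose by 1.496 ± 0.49 (edgeR adjusted p = 0.0338), a call that ended without MG_Control replicate 1 or 2 or MG_5FU replicate 1 or 2 (adjusted p up to 0.11). Oasl1, at 43.2, 23.4 and 23.02 CPM in MG_5FU and 19.4, 16.6 and 8.66 CPM in MG_Control, rose by 1.06 ± 0.31, a call that ended without MG_Control replicate 3 or MG_5FU replicate 1. Oas3 had 28 counts over MG_5FU and 2 over MG_Control, a ratio of 16.0 with a 95% counting interval of 4.04 to 139, and its call ended in 6 of 12 fits with a library left out and with the replicate block (adjusted p up to 0.129 and 0.0533). Ifit2, at 0.381, 1.06 and 0.876 CPM in MG_5FU and 2.38, 4.36 and 3.52 CPM in MG_Control, fell by 2.101 ± 0.59 (edgeR adjusted p = 0.0154), a call that ended without MG_Control replicate 2 or MG_5FU replicate 1. Irgm1, at 14.3, 20.5 and 15.8 CPM in MG_5FU and 21.9, 28.7 and 26.3 CPM in MG_Control, fell by 0.55 ± 0.17, a call that ended without MG_Control replicate 2 or 3 or MG_5FU replicate 1 or 3 (adjusted p up to 0.102). Ifit1 (1.51 ± 0.77), Ifit3 (1.12 ± 0.94), Oasl2 (0.58 ± 0.47), Oas1a (0.32 ± 0.25), Irf1 (0.12 ± 0.11), Stat2 (-0.14 ± 0.16), Igtp (0.803 ± 0.72) and Lgals3bp (-0.22 ± 0.09) did not pass.

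Of 32 further interferon-induced genes tested in Matrigel 8 rose and 3 fell. Tap1 rose by 3.04 ± 0.18 (edgeR adjusted p = 6.13e-08), Parp10 by 1.06 ± 0.17 and Shisa5 by 0.59 ± 0.10, while Lgals9, a galectin gene, fell by 0.82 ± 0.11. The chemokine gene Cxcl10 had 6.09, 5.82 and 5.17 CPM in MG_5FU and 1.57, 0.965 and 1.61 CPM in MG_Control and rose by 2.09 ± 0.36. Among 10 receptor and JAK-STAT genes 5 rose and 0 fell, Ifnar2 by 1.34 ± 0.14, Stat3 by 0.57 ± 0.10, Il10rb by 0.67 ± 0.12, Ifngr2 by 0.38 ± 0.11 and Ifnlr1 by 0.81 ± 0.24. Of 14 sensing genes 3 rose and 1 fell, Myd88 by 0.82 ± 0.11, Pqbp1 by 0.48 ± 0.10, Rigi, the RNA sensor RIG-I, by 1.06 ± 0.24 and Cgas by -0.63 ± 0.15. The 3 genes that encode RNase H2, which clears RNA from DNA, fell: Rnaseh2a by 0.67 ± 0.11, Rnaseh2b by 0.78 ± 0.14 and Rnaseh2c by 0.49 ± 0.15. With 5-FU in collagen Rnaseh2a was called lower as well (-0.47 ± 0.11). Rnaseh2b (-0.06 ± 0.14) and Rnaseh2c (-0.37 ± 0.15) did not pass there. The interferon ligand genes had 6 counts in all over MG_5FU and 12 over MG_Control. Macrophage markers summed to 35.1 to 37.4 TPM in MG_5FU and 24.8 to 28.9 TPM in MG_Control, with 3 of 7 tested higher.

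The difference between the drug's effects, collagen minus Matrigel, was tested in the same fit of 12 libraries. It was negative for 32 of the 36 members tested, 8 passed below 0 and 0 above it, 22.2% and 0%, against 6.3% below and 1.88% above among all genes tested. The median difference was -0.91, against -0.07 over all genes. The 8 were Isg15, Ifit1, Oas3, Oasl1, Irf7, Eif2ak2, Rtp4 and Ifi27. The difference was -1.78 ± 0.30 for Irf7 (edgeR adjusted p = 0.00242), -2.11 ± 0.44 for Oasl1 (edgeR adjusted p = 0.00945), -1.39 ± 0.32 for Ifi27 (edgeR adjusted p = 0.0175) and -0.86 ± 0.19 for Eif2ak2 (edgeR adjusted p = 0.0132). Oasl1 is the member that passed in opposite directions, higher with 5-FU in Matrigel and lower in collagen, while Irf7 and Ifi27 rose in Matrigel without a call in collagen. Eif2ak2 fell in collagen and stood at 0.03 ± 0.13 in Matrigel. The calls of these 4 and of Ifit1 held in every fit with a library left out, and among these fits the number of members called was lowest, at 5, without COL_Control replicate 3, where the difference of Ifit1 was -3.60.

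**Figure D5:**
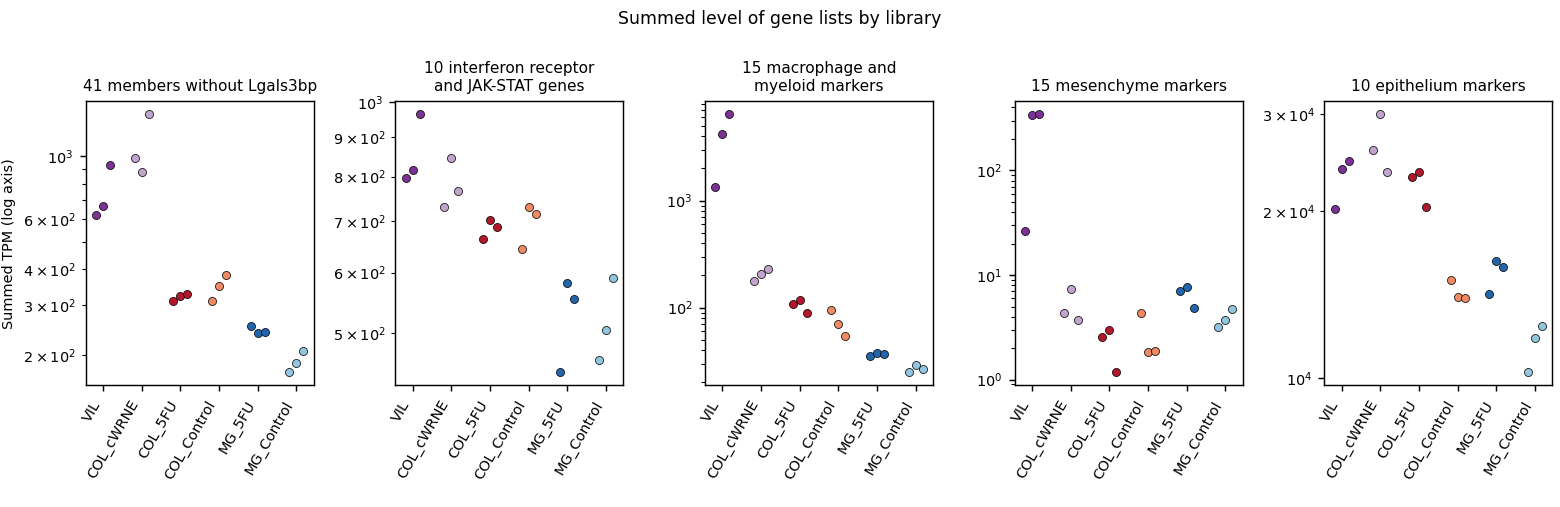
Summed TPM of 5 gene lists in each library on log axes, with groups in the order of the heat map. The 41 members and the receptor and JAK-STAT genes are higher in VIL and COL_cWRNE than in the other groups, the macrophage and mesenchyme markers are highest in VIL, and the epithelial markers are present throughout.

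Ligands were near the limit of detection in all groups. The 21 interferon genes, of types I, II and III, gave 14 counts over VIL, 7 over COL_cWRNE, 5 over COL_5FU, 12 over COL_Control, 6 over MG_5FU and 12 over MG_Control, and none could be tested. The receptors were expressed throughout. Ifngr1 had 509.9 ± 40.2 CPM in VIL and 353 ± 19.3 CPM in MG_Control, Ifnar1 100.4 ± 22.8 and 53.3 ± 13.6 CPM, and Ifnlr1 16.99 ± 9.18 and 9.496 ± 3.14 CPM (SD, n = 3). The receptor and JAK-STAT genes summed to 797 to 964 TPM in VIL, 729.5 to 845 TPM in COL_cWRNE and 462 to 591 TPM in MG_Control. Interferon protein was not measured.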

How the data were processed

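Per the labels' protocols, polyadenylated RNA of day 6 cultures was turned into cDNA by template switching (SMART-Seq mRNA), tagged with Nextera XT and read on a NovaSeq X Plus instrument. The submitters' processing notes name bcl2fastq 2.20, DRAGEN and the build GRCm39, and the strandedness of the counting is not given in the sources used here. The authors deposited estimated counts per gene and, separately, TPM. Of the nonzero estimated counts 67.8% were whole within 1e-09, and they were rounded to whole numbers. Symbols were matched to 52081 of 55414 gene IDs. Library totals were 22.3 M to 34.5 M, and counting intervals and floors of 3 counts cover counting error only.

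edgeR 4.0.16 (R 4.3.3) was fitted with TMM scaling, its filter on low counts (10 per library, 15 in total) and the quasi-likelihood F-test, two-sided, with Benjamini-Hochberg adjustment over all genes tested. The 4 crypt groups with or without 5-FU shared a fit of 12 libraries, VIL, COL_cWRNE and MG_Control a fit of 9, and the medium comparison used all 18. An SE is the log2 fold change over the square root of F. Levels between genes are TPM, and values of 1 gene between libraries are CPM. The alternatives were RLE size factors, library totals, DESeq2 1.42.0, limma 3.58.1 on log2(TPM + 1), 2 other filters, only the compared groups, a replicate block, VIL replicate 1 alone, and each library left out. The fitting was tested on simulated data.

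The members and lists were chosen with earlier results of these data known. Named in full were, per comparison and direction, the 4 called members with the largest change, at least 10 CPM in the higher group and no overlap, and 14 fixed genes. Other members and list genes were named to complete a role or a count, after their values were seen. Replicate numbers were taken to pair samples where deviations from the group means correlated above 0.1 in all 3 pairs. This held for 5-FU in Matrigel (0.286 to 0.565), 5-FU in collagen (0.202 to 0.428) and the medium comparison (0.179 to 0.347). The main fits held group only, so p-values use the pairing only where the replicate block is named. In all 6 groups replicate 2 held at least 3323 Y-linked counts, so a shared source is possible in the other comparisons too, which was not tested. Replicates of a group differed by more than sampling noise in all 18 pairs, with a chi-square per degree of freedom of at least 11.3. Promoter windows came from RefSeq's GRCm38.p6 table, and no GRCm39 coordinates are given. One gene of the pathway lists is not reported here, and the list counts and sums leave it out.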

Additional observations from a re-analysis of the deposited data

Results flagged for a closer look

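The 8 values below are differences between the effects of 5-FU in the 2 matrices, collagen minus Matrigel on the log2 scale, that passed edgeR's test of the difference itself. The difference was -2.73 for Isg15, -5.28 for Ifit1, -5.96 for Oas3, -2.11 for Oasl1, -1.78 for Irf7, -0.86 for Eif2ak2, -3.35 for Rtp4 and -1.39 for Ifi27. That of Oas3 rests on 28 counts over MG_5FU and 2 over MG_Control, and it lost its call in 8 of 12 fits with a library left out. Those of Isg15 and Rtp4 lost their calls in 5 and 2 of the 12 fits, COL_Control replicate 3 being among the libraries in each case. Whether matrix or medium moves with these differences cannot be told apart, since ENRW went with collagen and ENR with Matrigel.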

How the results depend on the processing

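Of the fold changes of members named by the fixed rule, 0 of the 89 that were called and 8 of the 41 that were not called changed sign under an alternative. For 5-FU in Matrigel Oas1a stood at -0.0115 with limma on TPM, and Irf1 at -0.028 with library totals and -0.258 with limma on TPM. For 5-FU in collagen Irf9 stood at -0.0298 and -0.133 under these settings and ranged from -0.14 to 0.42 with a library left out, and Igtp ranged from -1.33 to 0.16. For the difference between the 5-FU effects Oas1a stood at 0.0854 with limma on TPM and ranged from -0.32 to 0.13 with a library left out, and Lgals3bp stood at 0.0042 with RLE, 0.0041 with DESeq2, 0.0417 with no filter and 0.107 with limma on TPM and ranged from -0.12 to 0.0404. For VIL against COL_cWRNE Irf1 stood at -0.0271 with library totals and ranged from -0.16 to 0.22, and Stat2 from -0.63 to 0.0784. A filter at 10 CPM, which tests fewer members, left 1 member lower for 5-FU in Matrigel, 9 lower for 5-FU in collagen, 5 below 0 for the difference between them, 5 lower for VIL against COL_cWRNE, 0 lower for VIL against MG_Control, 24 higher for COL_cWRNE against MG_Control and 23 higher against COL_Control. Members higher with 5-FU in collagen numbered 2 with RLE size factors or the replicate block, and 3 with DESeq2, no filter, limma on TPM or only the compared groups. The difference between the 5-FU effects had 5 members below 0 with limma on TPM. For COL_Control against MG_Control 2 members were lower with RLE, DESeq2 or the block and 0 with limma on TPM. For VIL against COL_cWRNE 0 were higher with no filter, the block, limma on TPM or only the compared groups, and 5 were lower with RLE, only the compared groups or VIL replicate 1 alone. For VIL against MG_Control 0 were lower with RLE, no filter, the block, limma on TPM, only the compared groups or VIL replicate 1 alone. The causes were not tested. With 1 library left out at a time, the counts ranged from 5 to 9 higher and 0 to 2 lower for 5-FU in Matrigel, 1 to 2 higher and 7 to 17 lower for 5-FU in collagen, 5 to 10 below 0 for their difference, 9 to 18 higher and 1 to 2 lower for COL_Control against MG_Control, 0 to 1 higher and 1 to 9 lower for VIL against COL_cWRNE, 34 to 38 higher and 0 to 1 lower for VIL against MG_Control, 35 to 40 higher for COL_cWRNE against MG_Control and 26 to 37 higher against COL_Control. With the replicate block, the counts of members higher and lower were 7 and 2 for 5-FU in Matrigel, 2 and 16 for the drug in collagen, 13 and 2 for COL_Control against MG_Control, 0 and 7 for VIL against COL_cWRNE, 37 and 0 for VIL against MG_Control, 39 and 0 for COL_cWRNE against MG_Control and 33 and 0 against COL_Control. Library totals moved the median of all genes by -0.15 (MG_5FU against MG_Control), -0.11 (COL_5FU against COL_Control) and -0.16 (COL_cWRNE against COL_Control). For the difference between the 5-FU effects they gave 486 genes above and 985 below 0, RLE 486 and 957, and TMM 313 and 1047. Limma on TPM turned that balance round, with 809 above and 591 below 0, and also that of 5-FU in Matrigel (1517 higher and 3868 lower) and in collagen (2066 and 3075). It moved the median of all genes by 0.20, -0.29 and -0.10 in these, by 0.18 for COL_Control against MG_Control and by 0.11 for COL_cWRNE against MG_Control, and gave 611 higher and 521 lower for VIL against COL_cWRNE and 1583 and 1497 for COL_cWRNE against COL_Control. Members under 10 counts per library limit what could be called in MG_Control and COL_5FU.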
